A study of Mus musculus with 4 samples.

Results

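The genes described here encode subunits of RNA polymerases I, II and III and of the RNA exosome. They were taken as every symbol of the normalized expression table that begins with Polr1, Polr2, Polr3 or with Exosc and a digit and that averaged at least 1 FPKM, a read density scaled for transcript length and library size, over the libraries. All 38 symbols that match passed, of 10883 symbols that reached this level and 22458 in the table: 5 Polr1, 13 Polr2, 10 Polr3 and 10 Exosc genes. RNA was sequenced in 4 libraries, made from epithelium of the adult jejunum; every mouse had a mixed background, given as 129xC57/Bl6xSvJ. In 2 libraries the mice are labelled Hnf4a;Cdx2 double-knockout, and 2 came from Cre- controls. Mice of both groups received tamoxifen, 1 mg on each of 5 days, which activates Cre and so recombines the conditional alleles. The labels name neither the Cre driver nor the deleted exons. HNF4A and CDX2 are transcription factors of the intestinal epithelium, and the comparison asks what differs when both are targeted together.

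Polymerase I makes the large ribosomal RNA precursor in the nucleolus, polymerase II makes messenger RNAs, and polymerase III makes transfer RNAs and other short RNAs. The enzymes share several small subunits and differ in their catalytic and accessory ones. The exosome is a barrel of inactive ring proteins with a cap on top, to which nucleases bind; it trims ribosomal RNA precursors and degrades faulty transcripts. Demand for ribosomes is high in the dividing crypt cells of the intestine, which renew the epithelium.

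Hnf4a stood at 31.6 and 48.2 FPKM in the labelled double knockouts, against 156 and 202 FPKM in controls. Cdx2 stood at 159.8 and 161 FPKM in the labelled double knockouts, against 70.9 and 65.2 FPKM in controls, which goes against its label; a value per gene also counts exons outside a deleted part. Every direction below therefore rests on the labels. The 11 epithelial markers summed to 10520 to 12650 FPKM per library; limma called Krt19 higher and Epcam and Vil1 lower among them. Epcam, an epithelial adhesion protein, fell to 526.5 and 530.6 FPKM in the labelled double knockouts, against 1135 and 1281 FPKM in controls (limma, adjusted p = 0.03), and the part of such changes in the subunit values was not tested. The marker lists of stroma, endothelium and smooth muscle each summed to 0.776 to 10.3 FPKM per library, with Acta2 and Cdh5 at or near 0. Vim stood at 3.24 to 4.46 FPKM and Tagln at 1.6 to 2.18 FPKM. Dcn stood at 0.427 and 3.97 FPKM in labelled double knockouts 1 and 2, against 1.46 and 1.35 FPKM in controls. Immune markers, mostly Gzma and Gzmb of cytotoxic lymphocytes, summed to 65.7 and 185.5 FPKM in the labelled double knockouts, against 82.6 and 101.6 FPKM in controls. Of the 10 tested, limma called 0 higher and 1 lower, Itgam (adjusted p = 0.041). Itgam measured 0.706 and 0.55 FPKM in the labelled double knockouts, against 2.234 and 2.765 FPKM in controls. The files give no read counts. Among genes under 0.1 FPKM the most frequent ratio between libraries put the value of 1 read at 1.53 and 2.01 times that in control 1 in the labelled double knockouts 1 and 2, and at 1.46 times in control 2. A given FPKM therefore rests on the fewest reads in labelled double knockout 2 and on the most in control 1, and absolute depth is unknown. The data are from bulk tissue, in which more cells of a type and more RNA per cell cannot be told apart.

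In the labelled double knockouts the Polr1 genes were above controls in both libraries, most Exosc genes leaned the same way, and the Polr3 genes were divided. None of these differences passed the test adjusted over all genes. Limma called 0 of the 38 members at an adjusted p under 0.05, where 9.57% of all genes tested were called. Of all genes 3.77% (410) were called higher and 5.8% (631) lower, a split that became 482 higher and 451 lower with FPKM estimated for each library alone. At an unadjusted p under 0.05 there were 11 members, all higher, against 13.3% of all genes higher and 15% lower. The authors' deposited table calls a single member, Polr1a, as higher, against 13.2% of its rows with a completed test called in either direction and 5.9% called higher. Both labelled double knockouts lay above both controls in 22 of the 38 members and below both in 4, where 31.2% of all genes lay above and 29.5% below. The log2 difference was above 0 in 32 of 38 members, against 52.3% of all genes, with a median of 0.39 over the members and 0.02 over all genes. These differences are on the log2(FPKM + 1) scale, labelled double knockout minus control.

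**Figure D1:**
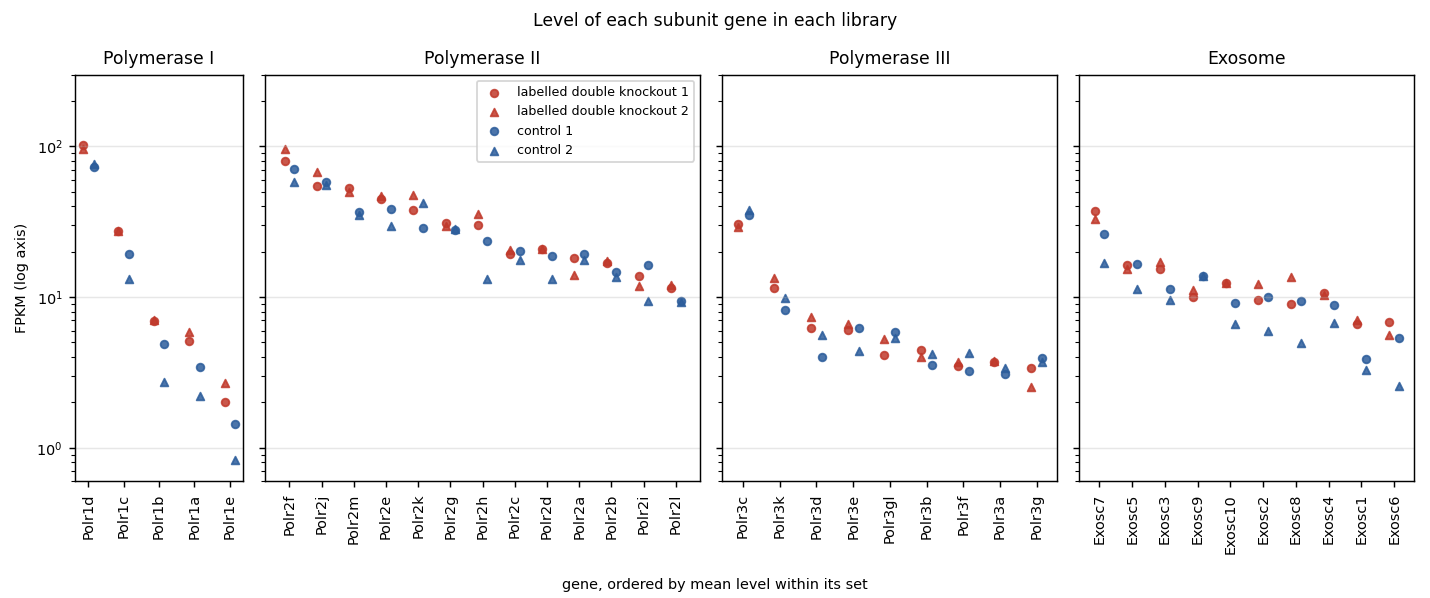
FPKM of 37 subunit genes (log axis) in the labelled double knockouts (red, left of each pair) and the controls (blue, right), with circles for replicate 1 and triangles for replicate 2. Genes run from the most to the least abundant within each set; in Polr1a, Polr1b, Polr1c and Polr1e the red points lie above the blue ones, and control 2 is lowest.

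All 5 Polr1 genes stood higher in both labelled double knockouts than in either control, against 31.2% of all genes. Their median log2 difference was 0.74. Without control 2 the median was 0.46. Polr1a encodes the largest, catalytic subunit (chromosome 6, 71859047 to 71929355, mm9). It measured 5.11 and 5.88 FPKM in the labelled double knockouts, against 3.42 and 2.22 FPKM in controls. The groups did not overlap, and the log2 difference was 0.78 ± 0.22 (SE; limma, adjusted p = 0.0979). In the authors' deposited table its group values are 5.17 FPKM in the knockout and 2.65 FPKM in the control (q = 0.0356). Polr1b, the second-largest subunit and the other part of the active site (chromosome 2, 128926732 to 128952331), measured 6.98 and 7.08 FPKM in the labelled double knockouts, against 4.90 and 2.74 FPKM in controls. Its log2 difference was 0.77 ± 0.26 (SE; limma, adjusted p = 0.133), and the labelled double knockouts were nearly equal while control 1 was 1.79 times control 2. Polr1e, which pairs with the product of Cd3eap in a polymerase I subcomplex, was the least abundant Polr1 gene in all 4 libraries. It measured 2.03 and 2.71 FPKM in the labelled double knockouts, against 1.44 and 0.835 FPKM in controls, a log2 difference of 0.66 ± 0.25 (SE; limma, adjusted p = 0.160).

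Polr1c and Polr1d encode a dimer on which both polymerase I and polymerase III are assembled. Polr1c measured 27.6 and 27.3 FPKM in the labelled double knockouts, against 19.3 and 13.2 FPKM in controls, a log2 difference of 0.74 ± 0.22 (SE; limma, adjusted p = 0.101). Polr1d was the most abundant of the 38 members, with 101.5 and 96.8 FPKM in the labelled double knockouts, against 73.0 and 76.1 FPKM in controls. Its log2 difference was the smallest of the Polr1 genes, 0.41 ± 0.15 (SE; limma, adjusted p = 0.162), and it was the Polr1 gene in which control 2 was not below control 1. Polr1d (chromosome 5, 147888922 to 147922937, mm9) lies 189538 bases from the targeted gene Cdx2 (148112476 to 148118825), whose level also differed; whether the position bears on the Polr1d value was not tested.

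The other subunits of polymerase I carry other symbols and did not all follow. Cd3eap measured 3.25 and 4.00 FPKM in the labelled double knockouts, against 2.74 and 1.51 FPKM in controls (limma, adjusted p = 0.221). Znrd1, the subunit with RNA cleavage activity, measured 27.2 and 25.1 FPKM in the labelled double knockouts, against 30.9 and 29.2 FPKM in controls (limma, adjusted p = 0.449). Twistnb, of the stalk, measured 5.79 and 7.39 FPKM in the labelled double knockouts, against 6.20 and 6.45 FPKM in controls (limma, adjusted p = 0.903). These 3 were picked out after their values were seen. They belong to a list of 12 polymerase I factors and other subunits, of which 11 were tested and limma called 0 in either direction, 2 having an unadjusted p under 0.05; the list's median log2 difference was -0.00448. Ubtf and Rrn3, which recruit the enzyme to the ribosomal genes, had log2 differences of -0.14 and 0.11. The greatest difference on the list was in Mybbp1a, a nucleolar protein, with 27.7 and 30.0 FPKM in the labelled double knockouts, against 20.5 and 11.8 FPKM in controls (log2 difference 0.85 ± 0.28 SE; limma, adjusted p = 0.126).

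Polymerase II genes were the most abundant set, summing to 433 and 469.7 FPKM in the labelled double knockouts, against 381.9 and 342.7 FPKM in controls. Of 13 genes, 8 lay above both controls in both labelled double knockouts and 0 lay below, against 31.2% and 29.5% of all genes. The median log2 difference of the 13 was 0.28. Among the 13 are the 5 small subunits that all 3 polymerases share, whose median log2 difference was 0.42 and of which 4 lay above both controls. Polr2h (chromosome 16, 20717899 to 20722338, mm9) had the greatest log2 difference of the 38 members. It measured 30.1 and 35.8 FPKM in the labelled double knockouts, against 23.7 and 13.1 FPKM in controls (log2 difference 0.86 ± 0.30 SE; limma, adjusted p = 0.146). Control 1 was 1.81 times control 2 for this gene, and without control 2 its log2 difference was 0.46, below those of Exosc1 (0.68), Polr3d (0.64) and Polr1a (0.55). Polr2f, the most abundant member of the set, measured 80.6 and 96.2 FPKM in the labelled double knockouts, against 70.4 and 58.3 FPKM in controls (limma, adjusted p = 0.199). Polr2e measured 45.0 and 46.6 FPKM in the labelled double knockouts, against 38.6 and 29.7 FPKM in controls (limma, adjusted p = 0.214). Polr2l, the least abundant of the set in 3 of the 4 libraries, measured 11.5 and 12.0 FPKM in the labelled double knockouts, against 9.44 and 9.33 FPKM in controls (limma, adjusted p = 0.262). The groups did not overlap in these 4. Polr2k was the shared subunit whose groups overlapped, with 38.0 and 47.3 FPKM in the labelled double knockouts, against 28.6 and 42.3 FPKM in controls (limma, adjusted p = 0.512).

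The 8 subunits of polymerase II alone had a median log2 difference of 0.11. Polr2a, the largest subunit, whose tail carries the phosphorylation marks of the transcription cycle, was the single Polr2 gene with a negative difference. It measured 18.1 and 14.0 FPKM in the labelled double knockouts, against 19.2 and 17.7 FPKM in controls, so the groups overlapped (log2 difference -0.20 ± 0.18 SE; limma, adjusted p = 0.529). Polr2b, its partner at the active site, measured 16.8 and 17.3 FPKM in the labelled double knockouts, against 14.8 and 13.6 FPKM in controls (limma, adjusted p = 0.328). Polr2m, a protein that associates with polymerase II and makes it depend on Mediator, departed most from the others of this class. It measured 53.4 and 49.9 FPKM in the labelled double knockouts, against 36.5 and 35.2 FPKM in controls (log2 difference 0.51 ± 0.15 SE; limma, adjusted p = 0.0979). Both controls were close together here, and the 95% interval of the difference was 0.13 to 0.89. Of the stalk pair, Polr2d had a log2 difference of 0.39 and Polr2g one of 0.11, each without overlap. The remaining Polr2c and Polr2j, which form the assembly dimer of the enzyme, and Polr2i had overlapping groups and log2 differences of 0.04 to 0.10 (limma, adjusted p of 0.746 to 0.939). Of 27 tested general factors of polymerase II limma called 0, with 4 higher and 1 lower at an unadjusted p under 0.05 and a median log2 difference of 0.16. The greatest difference there was in Gtf2b, which bridges the promoter and the enzyme, with 37.7 and 44.6 FPKM in the labelled double knockouts, against 58.0 and 70.8 FPKM in controls (log2 difference -0.63 ± 0.18 SE; limma, adjusted p = 0.102).

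**Figure D2:**
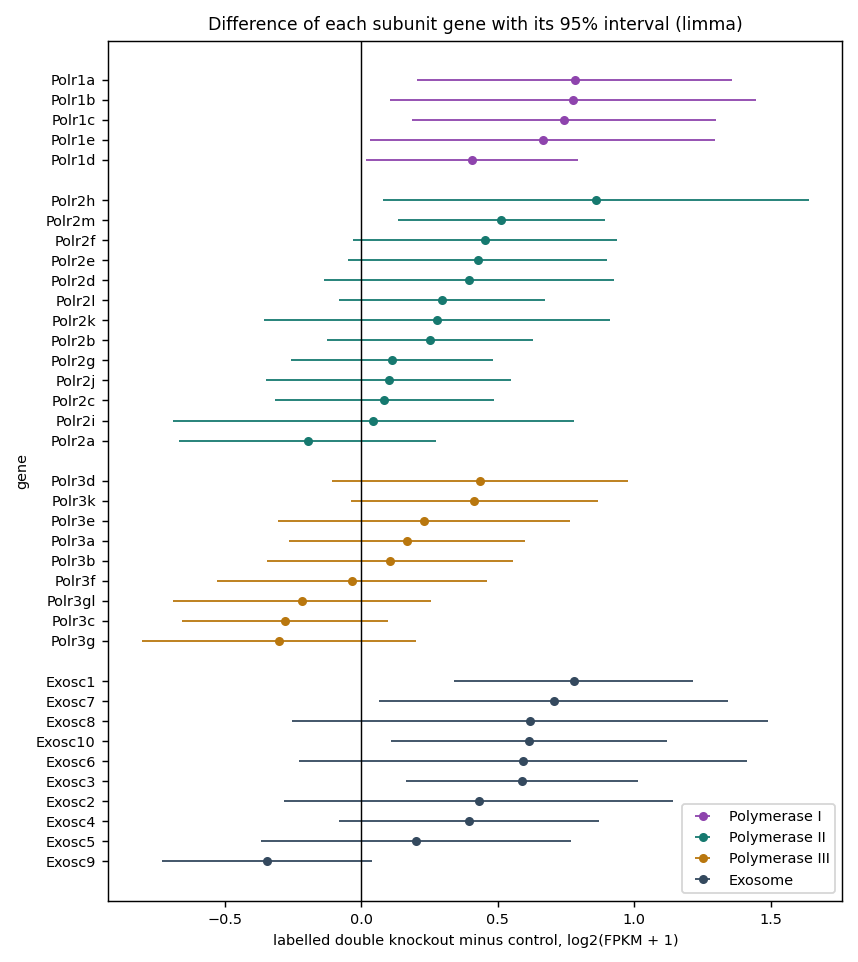
Log2 difference of 37 subunit genes, labelled double knockout minus control on the log2(FPKM + 1) scale, each with its 95% interval from limma (4 libraries); genes are grouped by enzyme and ordered within it. The 5 Polr1 intervals lie above 0, the 9 Polr3 intervals shown span 0, and Exosc9 is the exosome gene with a negative difference; the intervals are for single genes and are not adjusted for the number of genes.

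Polymerase III genes showed no common direction: 3 of 10 lay above both controls and 3 below, shares close to those of all genes, and the median log2 difference was 0.10. Their summed level was 75.5 and 78.2 FPKM in the labelled double knockouts, against 76.0 and 80.0 FPKM in controls. Without Polr3c, the most abundant of them, it was 45.1 and 49.0 FPKM in the labelled double knockouts, against 40.8 and 42.4 FPKM in controls. The 3 Polr1 genes of polymerase I alone (Polr1a, Polr1b and Polr1e) summed to 14.1 and 15.7 FPKM in the labelled double knockouts, against 9.76 and 5.79 FPKM in controls. This sum divided by that of all 10 Polr3 genes was 0.187 and 0.2 in the labelled double knockouts, against 0.128 and 0.0723 in controls. Cd3eap, Znrd1 and Twistnb, polymerase I subunits with other symbols, are not in this sum or ratio. Cd3eap lay above both controls, Twistnb overlapped and Znrd1 lay below both. Znrd1 alone, at 25.1 to 30.9 FPKM, exceeded the sum in every library. The ratio therefore describes genes with Polr symbols and not the whole enzymes. Subunits of an enzyme are not replicates and no test was made of the difference between the enzymes.

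The catalytic pair of polymerase III differed little. Polr3a stood at 3.73 and 3.76 FPKM in the labelled double knockouts, against 3.09 and 3.37 FPKM in controls, without overlap (log2 difference 0.17, 95% interval -0.27 to 0.60; limma, adjusted p = 0.564). Polr3b stood at 4.44 and 4.00 FPKM in the labelled double knockouts, against 3.56 and 4.16 FPKM in controls, with overlap (limma, adjusted p = 0.738). Of the pair Polr3d and Polr3e, which acts in termination and reinitiation, Polr3d had the greatest positive difference of the set. It measured 6.28 and 7.34 FPKM in the labelled double knockouts, against 3.99 and 5.64 FPKM in controls (log2 difference 0.44 ± 0.21 SE; limma, adjusted p = 0.251), while Polr3e overlapped. Polr3k, which carries out RNA cleavage, measured 11.4 and 13.3 FPKM in the labelled double knockouts, against 8.23 and 9.88 FPKM in controls (log2 difference 0.41 ± 0.18 SE; limma, adjusted p = 0.206).

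The subcomplex that polymerase III uses to start transcription consists of the products of Polr3c, Polr3f and either Polr3g or its paralog Polr3gl. These 4 genes, grouped after their values were seen, were those of the set with negative log2 differences. Polr3c held 42.8% of the summed polymerase III level (chromosome 3, 96515818 to 96531362, mm9). It measured 30.4 and 29.2 FPKM in the labelled double knockouts, against 35.2 and 37.6 FPKM in controls, without overlap (log2 difference -0.28 ± 0.15 SE; limma, adjusted p = 0.281). Polr3g measured 3.37 and 2.52 FPKM in the labelled double knockouts, against 3.97 and 3.71 FPKM in controls (log2 difference -0.30 ± 0.20 SE; limma, adjusted p = 0.369). Polr3gl measured 4.16 and 5.27 FPKM in the labelled double knockouts, against 5.91 and 5.33 FPKM in controls, so that labelled double knockout 2 lay just under the lower control (limma, adjusted p = 0.489). Polr3f overlapped, with a log2 difference of -0.03. Polr3c and Polr3gl are neighbours on chromosome 3, 117736 bases apart.

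Among 18 tested polymerase III factors and other subunits limma called 1 higher and 0 lower. Gtf3c6, a subunit of the factor that binds transfer RNA gene promoters, rose to 30.9 and 30.4 FPKM in the labelled double knockouts, against 17.0 and 17.8 FPKM in controls (log2 difference 0.79 ± 0.14 SE; limma, adjusted p = 0.0373). The other tested subunits of that factor, Gtf3c1 to Gtf3c5, were not called. Maf1, the repressor of polymerase III, picked out after its value was seen, measured 37.8 and 29.4 FPKM in the labelled double knockouts, against 56.6 and 53.0 FPKM in controls (log2 difference -0.70 ± 0.18 SE; limma, adjusted p = 0.082). Leaving out control 1, control 2 or either labelled double knockout ended the Gtf3c6 call, with log2 differences of 0.75 to 0.82, against 0.79. Calls over all genes also fell in these fits. A replicate block (limma, adjusted p = 0.0817) and no filter on low values (0.0506) ended the Gtf3c6 call too.

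Exosome genes lay above both controls in 6 of 10 cases and below in 1, against 31.2% and 29.5% of all genes. Their median log2 difference was 0.59. Without control 2 the median was 0.22. Control 2 was below control 1 in 10 of 10 exosome genes, against 50.7% of all genes. Exosc1, a cap protein (chromosome 19, 41997470 to 42007804, mm9), came closest to a call of all members. It measured 6.59 and 7.09 FPKM in the labelled double knockouts, against 3.88 and 3.29 FPKM in controls (log2 difference 0.78 ± 0.17 SE; limma, adjusted p = 0.0565). In the authors' deposited table Exosc1 has 7.22 FPKM in the knockout and 3.71 FPKM in the control and is not called (q = 0.143). Exosc3, another cap protein, measured 15.4 and 17.0 FPKM in the labelled double knockouts, against 11.3 and 9.61 FPKM in controls (log2 difference 0.59 ± 0.16 SE; limma, adjusted p = 0.0941). The third cap gene, Exosc2, overlapped, with 9.57 and 12.2 FPKM in the labelled double knockouts, against 10.1 and 5.97 FPKM in controls.

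The ring genes spread more widely, with log2 differences of -0.35 to 0.70. Exosc7, the most abundant exosome gene in every library, measured 37.2 and 33.0 FPKM in the labelled double knockouts, against 26.4 and 16.8 FPKM in controls (log2 difference 0.70 ± 0.25 SE; limma, adjusted p = 0.146). Exosc8 measured 8.99 and 13.6 FPKM in the labelled double knockouts, against 9.37 and 4.98 FPKM in controls. Its groups overlapped (limma, adjusted p = 0.300). Exosc6, the least abundant in 2 libraries, measured 6.79 and 5.63 FPKM in the labelled double knockouts, against 5.39 and 2.56 FPKM in controls (limma, adjusted p = 0.292). Exosc4 and Exosc5 had log2 differences of 0.39 and 0.20 (limma, adjusted p = 0.242 and 0.602). Exosc9 went the other way, with 10.1 and 11.2 FPKM in the labelled double knockouts, against 13.8 and 13.8 FPKM in controls (log2 difference -0.35 ± 0.15 SE; limma, adjusted p = 0.213). Its transcribed region overlaps that of the cyclin gene Ccna2, and the labels do not state whether strand was kept. The Exosc9 value is therefore uncertain, and so is that of Polr2c, whose region overlaps Dok4. Polr1e, Polr2b and Polr2i overlap Fbxo10, Igfbp7 and Ovol3 in that order, and these neighbours stood at 0 to 0.591 FPKM. Exosc10, the nuclear nuclease bound to the ring (chromosome 4, 147932536 to 147956509, mm9), measured 12.5 and 12.4 FPKM in the labelled double knockouts, against 9.14 and 6.62 FPKM in controls (log2 difference 0.61 ± 0.20 SE; limma, adjusted p = 0.121).

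The nuclease Dis3, which does not carry an Exosc symbol, measured 5.71 and 6.88 FPKM in the labelled double knockouts, against 5.56 and 3.74 FPKM in controls (limma, adjusted p = 0.332). Of 19 tested exosome nucleases and cofactors limma called 0 higher and 1 lower, and the median log2 difference was 0.21. Papd5, a poly(A) polymerase that tags nuclear RNAs for the exosome, fell to 9.97 and 9.34 FPKM in the labelled double knockouts, against 17.6 and 17.8 FPKM in controls (log2 difference -0.81 ± 0.15 SE; limma, adjusted p = 0.0361). Skiv2l2, the helicase that feeds RNA to the nuclear exosome, measured 16.7 and 19.3 FPKM in the labelled double knockouts, against 12.2 and 14.0 FPKM in controls (limma, adjusted p = 0.174), and was picked out after its value was seen. Leaving out any of the 4 libraries ended the Papd5 call too, with log2 differences of -0.85 to -0.77, against -0.81. So did a replicate block (limma, adjusted p = 0.0761), no filter on low values (0.0609) and FPKM estimated for each library alone (0.098).

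Control 2 was below control 1 in 29 of 38 members. The gap between the controls exceeded the difference between the groups in 12 of 38 members, against 4281 of all 10883 genes. The median gap between replicates was 0.13 log2 units in the labelled double knockouts and 0.33 in controls over the members, against 0.20 and 0.23 over all genes. Of the 11 members with an unadjusted p under 0.05, all but Polr1d had a smaller log2 difference without control 2. These smaller values ran from 0.39 (Exosc7) to 0.68 (Exosc1). Over the 4 fits that each left out 1 library, the difference was above 0 in 29 to 32 of 38 members, lowest without control 2. In the same fits it was above 0 in 50.9% to 52.5% of all genes.

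Ribosome biogenesis and proliferation genes were read beside them. Control 2 was also below control 1 in 28 of 28 ribosome biogenesis genes and in 18 of 18 proliferation genes. Ribosome biogenesis genes summed to 740 and 863.5 FPKM in the labelled double knockouts, against 636.7 and 444 FPKM in controls. In 26 of 28 both labelled double knockouts lay above both controls, against 31.2% of all genes. Of the 28, 17 had an unadjusted p under 0.05 in limma, all higher, against 13.3% of all genes higher. Limma called 0 of the 28, and their median log2 difference was 0.66. Nop14, which acts in assembly of the small ribosomal subunit, measured 10.7 and 12.6 FPKM in the labelled double knockouts, against 6.95 and 4.84 FPKM in controls (log2 difference 0.89 ± 0.22 SE; limma, adjusted p = 0.0696). Proliferation genes summed to 264.7 and 370.2 FPKM in the labelled double knockouts, against 344 and 205.5 FPKM in controls. The groups overlapped in 18 of 18, where 31.2% of all genes lay above both controls and 29.5% below. Limma called 0 of the proliferation genes, and none had an unadjusted p under 0.05. Their greatest difference was in Rrm2, a subunit of the enzyme that makes deoxynucleotides, at 0.72 ± 0.41 (SE; limma, adjusted p = 0.317). The part of proliferation and of control 2 in the polymerase and exosome values was not tested.

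**Figure D3:**
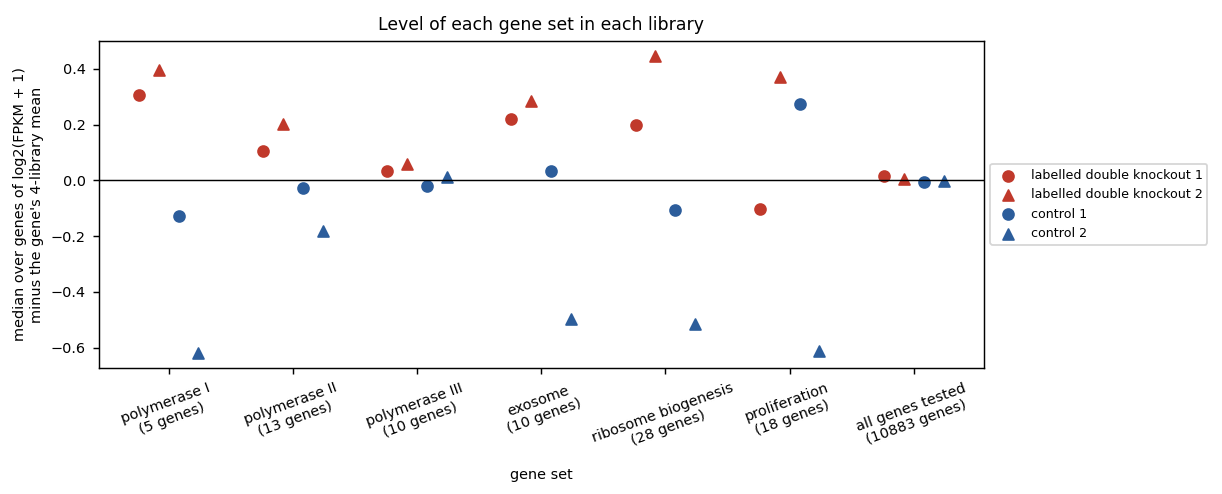
Median over the genes of each set of log2(FPKM + 1) minus the gene's own mean over the 4 libraries, 1 point per library, labelled double knockouts in red and controls in blue. Control 2 is the lowest library for polymerase I (-0.62), the exosome (-0.50), ribosome biogenesis (-0.52) and proliferation (-0.61); polymerase III and all genes tested stay near 0, and for proliferation control 1 (0.28) lies above labelled double knockout 1 (-0.10).

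Subunits are built into an enzyme in fixed proportion, but the levels of the genes within each set were far from equal. Between the most and the least abundant gene the ratio of FPKM was 50.1 and 35.7 in the labelled double knockouts and 50.8 and 91.2 in controls for polymerase I, always Polr1d over Polr1e. It was 7.03 and 8.13 in the labelled double knockouts and 7.46 and 6.24 in controls for polymerase II. For the exosome it was 5.64 and 5.86 in the labelled double knockouts and 6.81 and 6.58 in controls. Polr1d also serves polymerase III, and Polr2f, the most abundant Polr2 gene in every library, serves all 3 polymerases. The ratios for polymerases I and II are therefore not between subunits of a single enzyme alone. Polr2a and Polr2b, the catalytic pair of polymerase II, were at 13.6 to 19.2 FPKM, above those of polymerase I (2.22 to 7.08) and polymerase III (3.09 to 4.44) in every library. Over the 6 pairs of libraries, Spearman's rho of the levels was 1 for the 5 Polr1 genes, 0.857 to 0.978 for polymerase II, 0.842 to 0.988 for polymerase III and 0.661 to 0.867 for the exosome. The least abundant gene was Exosc1 in labelled double knockout 1 and control 1 and Exosc6 in the other libraries. Each rho is across genes, which are not replicates, and the libraries share gene lengths and annotation.

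Promoter sequences, the 250 bases before the start of a gene, were found for 30 of the 38 members (RefSeq, GRCm38.p6). They are shown for the 3 Polr1 genes of polymerase I alone, which stood above controls, and the 3 polymerase III genes that stood below. Capitals mark matches on either strand to CACGTG, the E-box bound by MYC and its relatives, or to CCGGAAG, an ETS factor motif; the sequences are 5′ to 3′ on the strand of the gene.
Polr1a: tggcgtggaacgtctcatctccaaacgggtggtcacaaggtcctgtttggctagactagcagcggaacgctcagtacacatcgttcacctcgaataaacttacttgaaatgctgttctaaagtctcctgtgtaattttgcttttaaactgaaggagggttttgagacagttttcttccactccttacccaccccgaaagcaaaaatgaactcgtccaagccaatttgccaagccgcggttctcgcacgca
Polr1b: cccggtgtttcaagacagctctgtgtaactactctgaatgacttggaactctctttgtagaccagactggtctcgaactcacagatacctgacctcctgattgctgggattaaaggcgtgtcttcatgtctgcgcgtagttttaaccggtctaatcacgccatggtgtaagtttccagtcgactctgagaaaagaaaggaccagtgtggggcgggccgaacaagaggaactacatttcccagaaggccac
Polr1e: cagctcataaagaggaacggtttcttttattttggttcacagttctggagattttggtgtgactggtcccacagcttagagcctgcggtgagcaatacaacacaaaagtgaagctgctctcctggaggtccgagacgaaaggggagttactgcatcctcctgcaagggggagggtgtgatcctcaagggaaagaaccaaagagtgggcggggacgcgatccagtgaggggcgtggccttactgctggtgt
Polr3c: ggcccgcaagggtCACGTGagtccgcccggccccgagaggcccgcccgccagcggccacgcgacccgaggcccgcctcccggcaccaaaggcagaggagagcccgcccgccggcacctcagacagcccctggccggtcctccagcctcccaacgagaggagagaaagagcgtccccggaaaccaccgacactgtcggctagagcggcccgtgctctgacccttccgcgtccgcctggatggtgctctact
Polr3g: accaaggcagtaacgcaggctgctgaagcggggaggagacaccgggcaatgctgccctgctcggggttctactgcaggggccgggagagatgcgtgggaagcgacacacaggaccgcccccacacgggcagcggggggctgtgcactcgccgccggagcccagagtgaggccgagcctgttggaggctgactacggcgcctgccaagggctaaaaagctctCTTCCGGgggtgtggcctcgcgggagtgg
Polr3gl: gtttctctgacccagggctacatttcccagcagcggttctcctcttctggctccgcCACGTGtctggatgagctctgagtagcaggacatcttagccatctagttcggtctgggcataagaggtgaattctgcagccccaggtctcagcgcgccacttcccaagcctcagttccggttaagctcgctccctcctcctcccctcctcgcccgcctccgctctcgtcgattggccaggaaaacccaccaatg
They lie at chr6:71908803-71909052, chr2:129100746-129100995 and chr4:45018359-45018608 on the plus strand, and at chr3:96727440-96727689, chr13:81711014-81711263 and chr3:96594182-96594431 on the minus strand. The polymerase I promoters were 47.6%, 49.6% and 53.2% G and C, and those of Polr3c, Polr3g and Polr3gl were 72.4%, 68.4% and 59.2%. The median was 59.6% over the members' promoters and 52.4% over all promoters, and the 6 genes were picked by the direction of their difference. CACGTG was found in the promoters of Polr3c, Polr3gl and Exosc5, 3 of 30 members, against 6.86% of all genes with a promoter, and in 0 of the 5 Polr1 genes. CCGGAAG was found in 6 of 30, among them Polr1c and Polr3g, against 7.83% of all. The NRF1 motif and CAAAGTCCA, bound by HNF4A, were found in 0 of 30, against 0.877% and 0.451% of all. TTTATNG, bound by CDX2, was found in Polr2a alone, 3.33% against 11.3% of all. A match is a run of letters and not a shown site, and its absence says only that these letters are not in this window.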

How the data were processed

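RNA-seq was read from 4 libraries of mouse jejunal epithelium, 2 per group; groups and replicate numbers come from the sample titles, and the labels call the replicates biological and do not name the animals, so p-values measure the spread between these libraries. Per the submitters' processing notes, TopHat2 2.0.9, Cufflinks 2.1.1, Cuffnorm, Cuffdiff and build mm9 were used, without stated roles. The authors deposited a normalized table with no unit in its header, treated here as FPKM because its values are of that size. Per the file headers the authors also deposited FPKM per library and a comparison with group FPKM, p-values and q-values; its direction was read from the group values. Starts of loci were raised by 1 to count from 1, since end minus start equals the RefSeq gene length for 8044 of 21810 symbols and falls 1 short for 508.

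Rows sharing a symbol were summed, symbols of short RNAs alone were left out (1034), and genes averaging 1 FPKM or more were tested with limma 3.58.1 in R 4.3.3 on log2(FPKM + 1), two-sided, with an intensity trend and Benjamini-Hochberg adjustment over 10883 genes; called means an adjusted p under 0.05. The pseudocount understates differences of low genes. With 2 libraries a group, the smallest p of an exact permutation test is 0.333, so none was used. The members, gene lists and tests were chosen with earlier results of these data known. Of the members 1 is counted in its set but not reported singly here. By rule every other member is named, with values for the 3 greatest differences, the most and least abundant member of each set and shared subunits, and from each list the called genes or the one with the greatest difference; further genes are marked or added for their role after their values were seen. Alternatives changed pseudocount, filter, scaling, FPKM source, variance model and replicate block, and left out each library. No gene's FPKM carries a counting error, since reads per gene are not given.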

Additional observations from a re-analysis of the deposited data

How the results depend on the processing

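No member was called by limma under any of the 13 alternatives, and the lowest adjusted p of a member lay between 0.0549 and 0.232. The number of all genes called was 157 to 685 when a library was left out, against 1041. FPKM estimated for each library alone moved the median of all genes to 0.17 log2 units, against 0.02, and split the calls into 482 higher and 451 lower; the polymerase III median became 0.21, close to that shift, and Polr3f turned to 0.15, against -0.03. With a mean of at least 5 FPKM, which left 5 polymerase III genes, their median was 0.23. When a library was left out the exosome median ran over 0.22 to 0.79 (lowest without control 2) and the polymerase I median over 0.46 to 1.00 (lowest without control 2). A pseudocount of 5 gave medians of 0.43 for polymerase I, against 0.74, 0.0491 for polymerase III, against 0.10, and 0.38 for the exosome, against 0.59, and FPKM for each library alone gave 0.45 for polymerase II, against 0.28. Over the same 4 fits Exosc5 ran over -0.0645 to 0.46, Polr2c over -0.00783 to 0.17, Polr2i over -0.33 to 0.42, Polr2j over -0.0496 to 0.25 and Polr3f over -0.188 to 0.12, and these directions are not settled. In all 467 of 475 values of single members kept their direction and stayed uncalled. In counts added after seeing the data, which leaving out a control can only raise, 8 members lay below and 25 above the remaining control without control 2 (38.6% and 42.5% of all genes), and 5 below and 29 above without control 1 (40.8% and 42.4%), against 4 and 22 with both. The labels name no pairing of the libraries. Over genes the replicate gaps of the groups were uncorrelated (r = -0.00481), which does not show whether the libraries were paired. The replicate block called 786 genes and 0 members.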
